A study of Homo sapiens with 9 samples.

Results

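The heat shock and cytosolic chaperone genes are 43 genes named for the function of their proteins. Of these, 41 had a gene level of their own among the 16748 genes measured. HSPA1A and HSPA1B, the near-identical inducible HSP70 genes, had no probe set that carried 1 of the symbols alone and so no gene level. The 41 fell into 6 HSP70 genes, 9 genes of HSP90 proteins and their cochaperones, 8 DNAJ genes, 4 BAG genes, 9 chaperonin subunits, 3 small heat shock proteins and 2 heat shock factors. The products of HSPA9, TRAP1, DNAJA3, HSPD1 and HSPE1 work in mitochondria and those of HSF1 and HSF2 are transcription factors, so the name cytosolic chaperone does not cover all members.

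Flip-In-293 cells, a human embryonic kidney line that carries an integrated recombination site, were infected with lentivirus and kept in culture for 10 days, and total RNA was read on Affymetrix exon arrays. The 3 groups of 3 arrays differed in the short hairpin RNA that the virus delivered. The control arrays had a non-silencing hairpin, 3 arrays are labelled with a hairpin against CPSF3, the nuclease of the polyadenylation machinery that cleaves nascent messages, and 3 with a hairpin against RBFOX2, a regulator of alternative exons. All groups, the control included, were infected cells, and neither the number of hairpins per target nor any selection of clones is given in the sources used here. The series addresses how factors that form the ends of messages affect the use of internal exons. The sample titles call the replicates biological and the design text calls them technical, and the p-values cover only the array-to-array spread, whether technical or not. In RNA from a whole culture, a change in every cell and a change in a share of the cells cannot be told apart.

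Chaperones bind unfolded or partly folded proteins, and many release them in cycles driven by ATP, while small heat shock proteins hold them without ATP. HSP70 proteins take up a substrate with the help of a DNAJ protein and release it when a BAG or HSP110 protein exchanges their nucleotide, and STIP1 hands some substrates on to HSP90, while the ring-shaped chaperonins enclose theirs. Heat shock factors bind heat shock elements, inverted repeats of a short unit, in the promoters of many of these genes, and HEK293 cells are known for high basal levels of several of them.

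Promoters are shown first for the genes in which a member that rose on the arrays labelled CPSF3 knockdown carried 3 adjoining heat shock units. A pair of units was searched as GAANNTTC or TTCNNGAA, each of which reads the same on both strands, and a run as at least 3 such units in alternating orientation with 2 free bases between neighbours, so that each run also holds pairs. The sequences are RefSeq promoters of GRCh38.p14, written 5′ to 3′ from 250 bases before the start site to 30 bases after it, with each run of 3 or more units in capitals. HSPA8 lies on the minus strand (chr11:123062107-123062386) and DNAJA1 on the plus strand (chr9:33025023-33025302). CHORDC1, on the minus strand (chr11:90223020-90223299), was added after its values were seen, because it held the longest run among the members and was not called.
HSPA8: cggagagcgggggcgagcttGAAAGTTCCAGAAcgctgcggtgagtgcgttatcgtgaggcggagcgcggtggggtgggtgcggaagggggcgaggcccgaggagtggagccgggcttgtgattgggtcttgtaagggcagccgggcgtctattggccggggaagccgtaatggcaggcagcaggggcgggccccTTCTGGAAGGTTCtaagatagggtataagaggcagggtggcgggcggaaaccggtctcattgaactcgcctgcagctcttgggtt
DNAJA1: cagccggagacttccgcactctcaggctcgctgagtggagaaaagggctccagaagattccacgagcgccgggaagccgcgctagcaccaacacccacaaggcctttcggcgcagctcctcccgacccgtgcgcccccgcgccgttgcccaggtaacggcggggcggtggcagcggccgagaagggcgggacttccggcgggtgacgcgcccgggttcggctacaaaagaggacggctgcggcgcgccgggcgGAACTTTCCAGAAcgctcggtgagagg
CHORDC1: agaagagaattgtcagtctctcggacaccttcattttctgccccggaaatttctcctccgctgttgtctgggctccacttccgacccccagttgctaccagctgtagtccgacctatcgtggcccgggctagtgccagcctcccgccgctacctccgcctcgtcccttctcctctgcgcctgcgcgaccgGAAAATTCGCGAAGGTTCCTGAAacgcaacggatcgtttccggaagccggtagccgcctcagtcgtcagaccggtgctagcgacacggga

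Counted from the start site as base 1 with no base 0, the runs of 3 units in HSPA8 covered bases -230 to -218 and -55 to -43. The run of 3 units in DNAJA1 lay after the start site, at bases 4 to 16. CHORDC1 had a run of 5 units at bases -60 to -38. Promoter windows of 300 bases (250 before to 50 after the start) were at hand for 38 of the 43 members, and those of HSPA14, FKBP4, ST13, CRYAB and HSF1 were not. A pair of units was present in 12 of the 38 windows (31.6%) and in 13.7% of 27305 RefSeq windows of the same length. A run of 3 or more units was present in 4 of the 38 (10.5%), the fourth being DNAJB6, and in 0.487% of all windows. Of the 8 matched members that rose on the arrays labelled CPSF3 knockdown, 3 had a pair and 2 a run; of the 28 with a level that were not called, 7 had a pair and 2 a run. These letters are a description of the windows and not evidence of binding. Only exact units in the first listed window of each gene were searched. Imperfect units and other start sites were not covered, so a gene without a run is not shown to lack a heat shock element. The windows of HSPD1 and HSPE1 overlapped by 204 bases on opposite strands.

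The correlation of any pair of arrays lay between 0.896 and 0.980. Counts of called genes depended on single arrays. Without control replicate 3, 9.23% of all genes were called on the RBFOX2 knockdown arrays and 20.5% on the arrays labelled CPSF3 knockdown. With all arrays these shares were 0.173% and 14.4%. On the arrays labelled CPSF3 knockdown the share fell to 5.76% without CPSF3 replicate 1. It was 6.46% without control replicate 1 and 7.19% without control replicate 2. The CPSF3 transcript was at 9.47 ± 0.29 (SD, n = 3) on the control arrays and 9.38 ± 0.19 on the arrays labelled CPSF3 knockdown, a change of -0.09 (adjusted p = 0.752, limma), so the targeted transcript does not bear out that label and every direction given for those arrays rests on it. RBFOX2 was at 66.7% of the control level on the RBFOX2 knockdown arrays (adjusted p = 0.0617, limma). Of 8 measured genes characteristic of the HEK293 line, 4 were above the 75th percentile of all genes. NEFM was at percentile 31.7, CD24 at 35.0, PAX2 at 58.5 and LHX1 at 62.6. Of the 8 genes, 4 fell on the arrays labelled CPSF3 knockdown (VIM by 1.05, CD24 by 1.03, NEFL by 0.87 and KRT8 by 0.57 on the log2 scale). The array means of these 8 genes ran from 9.33 to 9.59 on control, 8.98 to 9.12 on the arrays labelled CPSF3 knockdown and 9.20 to 9.33 on the RBFOX2 knockdown arrays, and their part in the chaperone results was not tested. Markers of blood, endothelial and keratinocyte cells lay at or below the 37th percentile and fibroblast markers at or below the 72.5th, and none of these 18 genes was called in the arrays labelled CPSF3 knockdown.

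Chaperone genes were mostly higher on the arrays labelled CPSF3 knockdown. Of the 41 members, 9 rose and 1 fell at an adjusted p under 0.05 (limma, Benjamini-Hochberg adjustment over all genes). That is 22.0% higher and 2.44% lower, where 10.0% of all genes were called higher and 4.38% lower. The 9 that rose were the HSP70 genes HSPA4, HSPA8 and HSPH1, the HSP90 cochaperones STIP1 and FKBP4, the DNAJ genes DNAJA1 and DNAJC7, BAG2 and the chaperonin subunit CCT5, by 1.31-fold to 1.64-fold. The small heat shock protein CRYAB fell by 1.46 on the log2 scale, to a mean level of 6.69 that lies under the 6.97 of the filter on low signal. Changes were above 0 in 32 of 41 members (78.0%), with a median of 0.19 on the log2 scale against 0.01 over all genes. All 3 arrays lay above all 3 control arrays for 20 members (48.8%, against 17.9% of all genes) and below them for 2 (4.88%, against 13.2%). The count of called members fell to 6 without control replicate 2 (14.6%, with 7.19% of all genes called) and to 5 without CPSF3 replicate 1 (12.2%, with 5.76%).

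**Figure D1:**
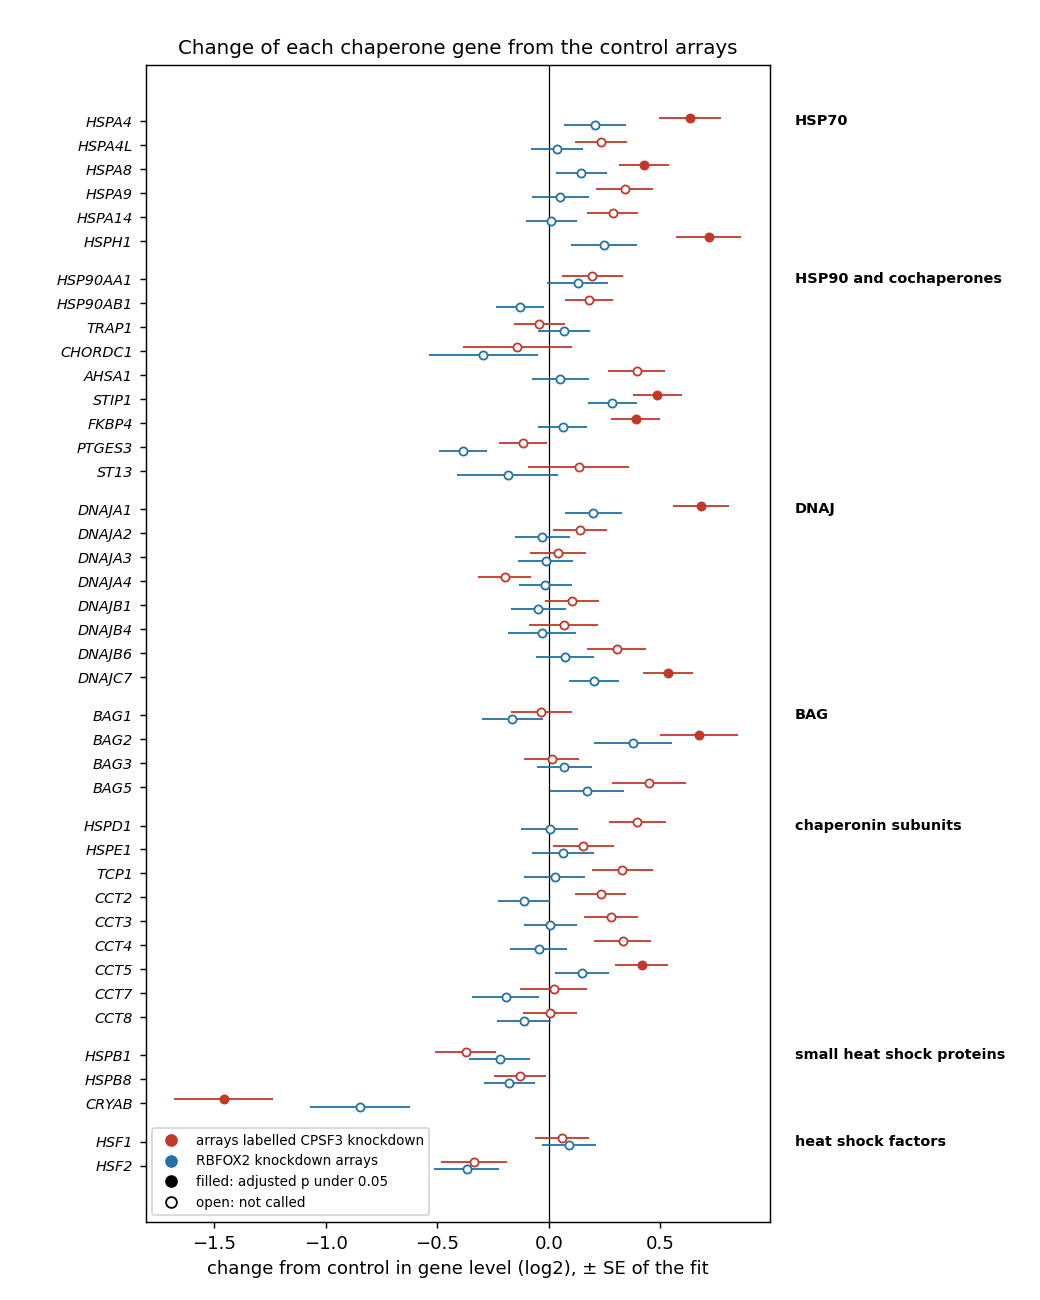
Change in gene level from the control arrays (log2, x axis) of the 41 chaperone genes (y axis, by class), for the arrays labelled CPSF3 knockdown (red) and the RBFOX2 knockdown arrays (blue). Points are fitted differences over 3 arrays per group, bars are ± SE, and filled points have an adjusted p under 0.05; 9 red points are filled to the right of 0 and 1 (CRYAB) to the left, and no blue point is filled.

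All 6 HSP70 genes had a positive change on the arrays labelled CPSF3 knockdown, with a median of 0.38. Of the 6, 3 rose, where 10.0% of all genes did. HSPH1, an HSP110 protein that acts as a nucleotide exchange factor for HSP70, read 9.29, 9.21 and 9.53 on the control arrays, 10.20, 9.96 and 10.02 on the arrays labelled CPSF3 knockdown and 9.61, 9.30 and 9.86 on the RBFOX2 knockdown arrays. The arrays labelled CPSF3 knockdown lay above all others, while the RBFOX2 knockdown arrays overlapped the control arrays. The rise over control was 0.72 ± 0.15 (SE of the fit), or 1.64-fold (adjusted p = 0.00739, limma), the largest rise among the members. HSPA4, another HSP110 protein, read 9.93, 9.76 and 9.82 on control, 10.73, 10.45 and 10.23 with the CPSF3 label and 10.09, 9.88 and 10.16 on the RBFOX2 knockdown arrays. Again the arrays with the CPSF3 label stood above both other groups, which overlapped each other. HSPA4 rose by 0.63 ± 0.14, or 1.55-fold (adjusted p = 0.00942, limma).

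HSPA8 encodes the constitutive HSP70 of the cytosol. Its arrays read 12.58, 12.62 and 12.67 in the control group, 12.98, 13.05 and 13.11 in the group labelled CPSF3 knockdown and 12.65, 12.71 and 12.95 in the RBFOX2 group. The lowest array with the CPSF3 label was above the highest of the other groups, though RBFOX2 replicate 3 came close to it. The rise of HSPA8 was 0.43 ± 0.11, or 1.34-fold (adjusted p = 0.0233, limma); the call was lost without control replicate 1, control replicate 2 or any 1 of the 3 arrays labelled CPSF3 knockdown. The other HSP70 genes did not pass the test. HSPA9, the mitochondrial HSP70, changed by 0.34 ± 0.13 (adjusted p = 0.0962), HSPA14, an HSP70 linked to ribosomes, by 0.29 ± 0.11 (adjusted p = 0.112), and HSPA4L, another HSP110 protein, by 0.23 ± 0.12 (adjusted p = 0.214, all limma). For HSPA9 and HSPA14 the arrays of the groups were apart, and for HSPA4L they overlapped.

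**Figure D2:**
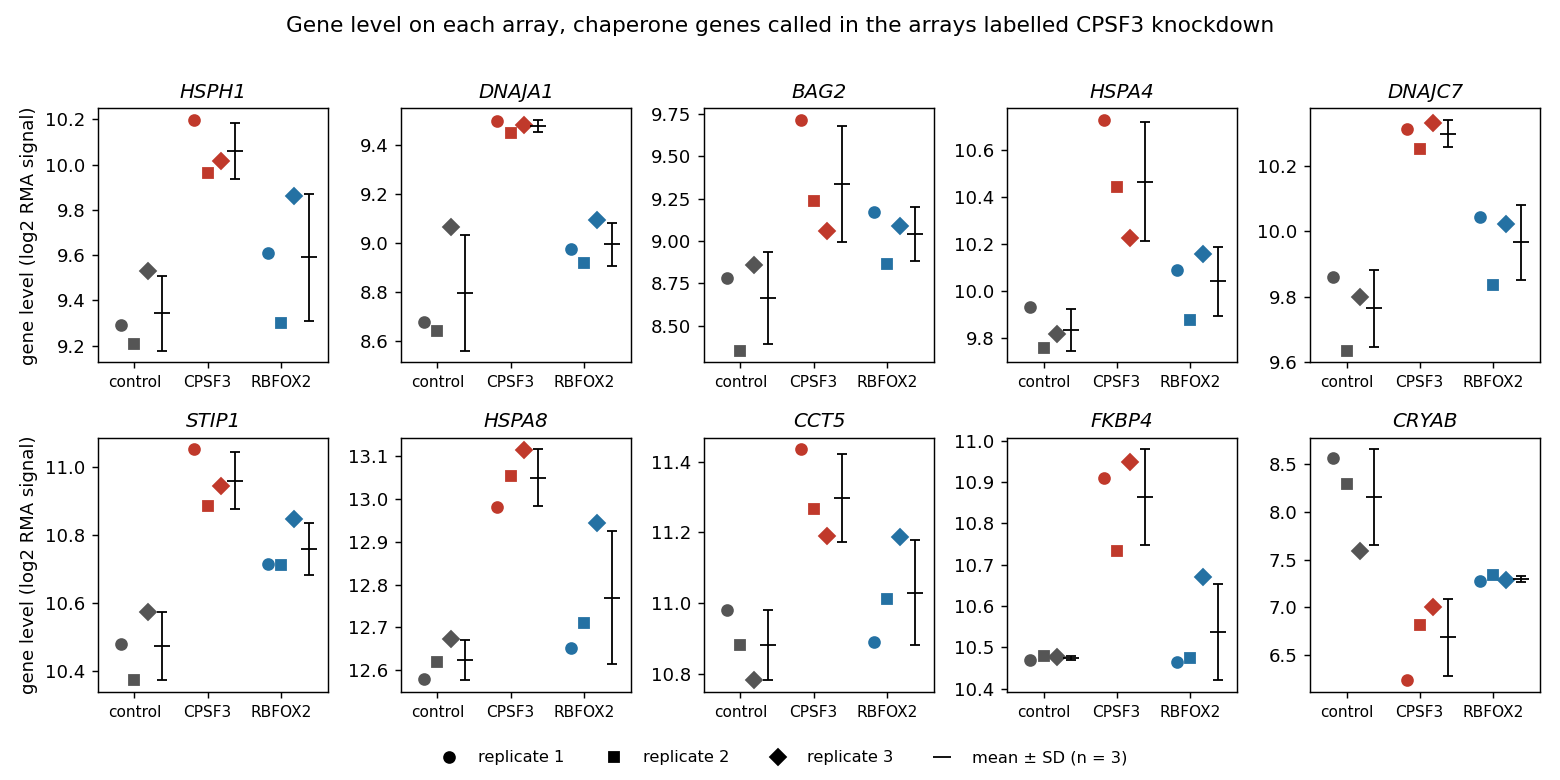
Gene level (log2 RMA signal, y axis, with its own range in each panel that does not start at 0) on each of the 9 arrays for the 10 members called in the arrays labelled CPSF3 knockdown. Symbols are replicates 1 to 3 of each group and black bars the mean ± SD (n = 3); in each of the first 9 panels the red arrays lie above the grey control arrays, and for CRYAB they lie below.

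HSP90 itself was not called, while a pair of its cochaperones rose. Of the 9 genes in this class, 2 rose and 0 fell (10.0% and 4.38% of all genes did), and the median change was 0.18. STIP1, the adaptor that links HSP70 to HSP90, read 10.48, 10.37 and 10.57 on the control arrays, 11.05, 10.89 and 10.94 with the CPSF3 label and 10.72, 10.71 and 10.85 on the RBFOX2 knockdown arrays. These 3 groups did not overlap, with the RBFOX2 knockdown arrays in between. STIP1 rose by 0.49 ± 0.11, or 1.40-fold (adjusted p = 0.0113, limma), a call that was lost without CPSF3 replicate 1. FKBP4, an immunophilin that binds HSP90 in steroid receptor complexes, read 10.47, 10.48 and 10.48 on control, 10.91, 10.73 and 10.95 with the CPSF3 label and 10.47, 10.47 and 10.67 on the RBFOX2 knockdown arrays. Its control arrays were nearly equal, and RBFOX2 replicate 3 stood above them. FKBP4 rose by 0.39 ± 0.11, or 1.31-fold (adjusted p = 0.0328, limma); centring the arrays ended the call, as did leaving out control replicate 1 or 2 or CPSF3 replicate 1 or 3.

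The remaining genes of the HSP90 class missed the threshold. AHSA1, which speeds up the ATPase of HSP90, came nearest, at 0.39 ± 0.13 (adjusted p = 0.0533, limma), and its arrays with the CPSF3 label lay above all control arrays. The cytosolic HSP90 genes HSP90AA1 (0.19 ± 0.14) and HSP90AB1 (0.18 ± 0.11) had adjusted p of 0.399 and 0.312 (limma). The mitochondrial TRAP1 (-0.04), the p23 cochaperone PTGES3 (-0.12), the HSP70-interacting ST13 (0.13) and the HSP90-binding CHORDC1 (-0.14) were nearer to 0. CHORDC1, whose promoter held the run of 5 units, had wide control arrays at 8.72, 8.99 and 8.15, against 8.47, 8.37 and 8.59 with the CPSF3 label, so the groups overlapped and the 95% interval of its change ran from -0.67 to 0.38. Of its 20 kept probe sets 14 were above control, with a median change of 0.13, against the sign of its gene level. That sign turned in 3 of 19 alternatives, so the direction of CHORDC1 is open. For ST13, 4 of 6 probe sets were below control, and its sign also turned in 3 alternatives.

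Among the J-domain proteins, which deliver substrates to HSP70 and stimulate its ATPase, 2 of 8 rose and 0 fell, with a median change of 0.12. Of all genes, 10.0% rose and 4.38% fell. DNAJA1, a cytosolic partner of HSPA8, read 8.68, 8.64 and 9.07 on the control arrays, 9.50, 9.45 and 9.48 on the arrays labelled CPSF3 knockdown and 8.97, 8.92 and 9.09 on the RBFOX2 knockdown arrays. The arrays with the CPSF3 label were tightly grouped and stood above the rest, and the other groups overlapped. DNAJA1 rose by 0.68 ± 0.13, or 1.61-fold (adjusted p = 0.00491, limma); with the mean of the probe sets as the gene level the change was 1.06. DNAJC7, which also binds HSP90 through its TPR domains, read 9.86, 9.63 and 9.80 on control, 10.31, 10.25 and 10.33 with the CPSF3 label and 10.04, 9.84 and 10.02 on the RBFOX2 knockdown arrays. Here too the CPSF3 label marked the 3 highest arrays, and the control and RBFOX2 knockdown arrays overlapped. The rise of DNAJC7 was 0.53 ± 0.11, or 1.45-fold (adjusted p = 0.00803, limma).

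DNAJB1, the stress-inducible partner of HSP70, was not called (0.10 ± 0.12, adjusted p = 0.646, limma), and its arrays overlapped at 9.80, 9.58 and 9.56 on control and 9.93, 9.66 and 9.67 with the CPSF3 label. DNAJB6, which holds back aggregation of polyglutamine proteins, differed by 0.30 ± 0.13 (adjusted p = 0.146, limma) with its arrays apart. DNAJA2 (0.14), the mitochondrial DNAJA3 (0.04), DNAJB4 (0.07) and DNAJA4 (-0.20) were within 0.20 of control on the log2 scale and were not called.

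Of the 4 BAG genes, 1 rose, where 10.0% of all genes did. BAG2, an exchange factor of HSP70 that inhibits the ubiquitin ligase CHIP, read 8.78, 8.35 and 8.86 on the control arrays, 9.72, 9.24 and 9.06 on the arrays labelled CPSF3 knockdown and 9.17, 8.87 and 9.09 on the RBFOX2 knockdown arrays. Both knockdown groups lay above the control arrays and overlapped each other. BAG2 rose by 0.67 ± 0.17, or 1.59-fold (adjusted p = 0.0213, limma); the call was lost without control replicate 2, without CPSF3 replicate 1, and when only probe sets in the upper quartile of signal were kept. BAG5, which has several BAG domains, changed by 0.45 ± 0.17 (adjusted p = 0.0895, limma) with overlapping arrays. BAG3, the heat-inducible member that links HSP70 to small heat shock proteins and autophagy, was at 0.01 ± 0.12 (95% interval -0.25 to 0.27), and BAG1 at -0.03 ± 0.14.

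Of the 9 chaperonin subunits, 1 rose, a share near the 10.0% of all genes. For 6 of them the arrays with the CPSF3 label lay above all control arrays, where 17.9% of all genes did. The median change was 0.28, and all 9 changes were above 0, although those of HSPE1, CCT7 and CCT8 turned their sign in 1, 5 and 9 of 19 alternatives. The gene that rose was CCT5, a subunit of the cytosolic TRiC ring that folds actin and tubulin, which read 10.98, 10.88 and 10.78 on control, 11.44, 11.27 and 11.19 with the CPSF3 label and 10.89, 11.01 and 11.19 on the RBFOX2 knockdown arrays. The lowest array with the CPSF3 label was above RBFOX2 replicate 3 by less than 0.01, and the RBFOX2 knockdown arrays overlapped the control arrays. CCT5 rose by 0.42 ± 0.12, or 1.33-fold (adjusted p = 0.0339, limma). Its call was lost in 7 of 19 alternatives, among them the runs without any 1 control array or without CPSF3 replicate 1 or 2, and with the mean of the probe sets the change was 0.26. The TRiC subunits TCP1 (0.33), CCT4 (0.33), CCT3 (0.28) and CCT2 (0.23) had arrays apart and adjusted p from 0.10 to 0.214 (limma), whereas CCT7 (0.02) and CCT8 (0.00) overlapped control. Of the mitochondrial pair, HSPD1, the ring, was at 0.40 ± 0.13 (adjusted p = 0.0531) with arrays apart, and HSPE1, its lid, at 0.15 ± 0.14 (adjusted p = 0.523, limma). With the mean of its probe sets HSPE1 was at 0.40 and was called, and 7 of its 8 probe sets were above control, with a median of 0.54.

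Of the 3 small heat shock proteins, which hold unfolded proteins without ATP, 1 fell and 2 had arrays with the CPSF3 label below all control arrays. Of all genes, 4.38% fell and 13.2% had such arrays. CRYAB, or alpha-B crystallin, read 8.56, 8.29 and 7.59 on the control arrays, 6.24, 6.82 and 7.01 on the arrays labelled CPSF3 knockdown and 7.28, 7.34 and 7.28 on the RBFOX2 knockdown arrays. The groups did not overlap, and the control arrays spread over nearly 1 log2 unit (SD 0.50). CRYAB fell by 1.46 ± 0.22 on the log2 scale (adjusted p = 0.00215, limma), and 3 of its 6 probe sets passed the filter on low signal, which takes the mean over all 9 arrays. With the CPSF3 label its mean was below that limit, so the size of the fall is uncertain. HSPB1, or HSP27, read 10.26, 10.29 and 10.28 on control, 9.55, 10.07 and 10.08 with the CPSF3 label and 10.00, 10.12 and 10.05 on the RBFOX2 knockdown arrays. Both knockdown groups lay below the control arrays, with CPSF3 replicate 1 lowest, but the change of -0.37 ± 0.14 was not called (adjusted p = 0.0859, limma). HSPB8, the partner of BAG3, was at -0.13 ± 0.12 with overlapping arrays (adjusted p = 0.520, limma), and its sign turned in 1 alternative.

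Neither heat shock factor was called. HSF2 had the smaller p and read 10.40, 10.02 and 9.79 on the control arrays, 9.90, 9.67 and 9.64 on the arrays labelled CPSF3 knockdown and 9.61, 9.78 and 9.72 on the RBFOX2 knockdown arrays. The control arrays reached down into the range of those with the CPSF3 label, and the change was -0.34 ± 0.15 (adjusted p = 0.147, limma). HSF1, the main activator of the heat shock response, was at 9.44 ± 0.12 on control and 9.50 ± 0.12 (SD, n = 3) with the CPSF3 label, a difference of 0.06 ± 0.12 with a 95% interval from -0.20 to 0.32.

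**Figure D3:**
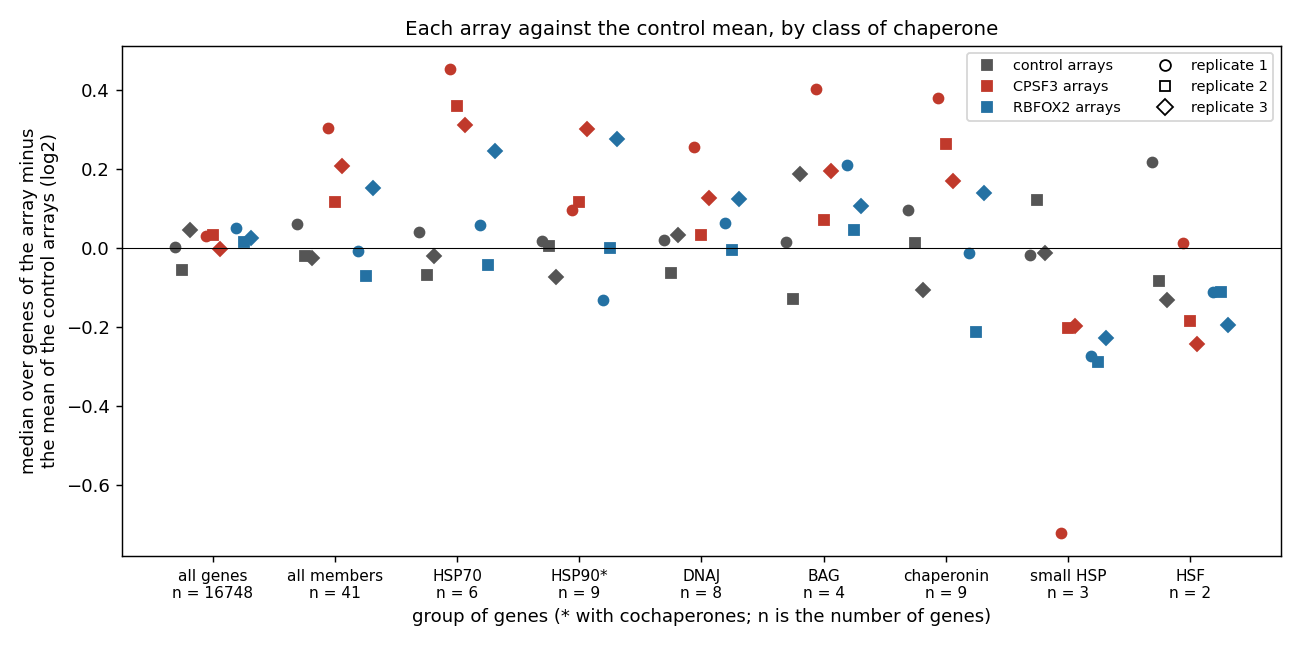
For each array, the median over the genes of a class of its level minus the control mean (log2, y axis), for all genes, all 41 members and the 7 classes (x axis). Each point is 1 array, with colour for group and symbol for replicate; the medians over all members were 0.30, 0.12 and 0.21 on the arrays labelled CPSF3 knockdown, and RBFOX2 replicate 3 reached 0.15.

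Arrays of 1 group differed in their chaperone levels. The median of the members relative to the control mean was 0.30 on CPSF3 replicate 1, 0.12 on replicate 2 and 0.21 on replicate 3, and for the 6 HSP70 genes it was 0.45, 0.36 and 0.31. On the RBFOX2 knockdown arrays the median over the members was -0.01, -0.07 and 0.15, so replicate 3 lay inside the range of the arrays with the CPSF3 label. RBFOX2 replicate 3 was the highest array of its group for 26 of the 41 members, and for 35.0% of all genes. CPSF3 replicate 1 was the highest of its group for 25 of the 41 members, and for 48.9% of all genes. The medians over all genes stayed between -0.06 and 0.05 on all 9 arrays.

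Single probe sets, most of which read 1 exon or part of one, gave a finer view of the same arrays. Of the members' 828 probe sets, 728 passed the filter on low signal. On the arrays labelled CPSF3 knockdown 552 of these (75.8%, against 54.0% of the kept probe sets with 1 gene symbol) were above control. Of the 728, 28 were called higher (3.85%, against 1.84% of those with 1 gene symbol) and 4 lower (0.549%, against 0.923%; limma, adjusted over all kept probe sets). The count of called probe sets was 0 without control replicate 1 or 2 and without any 1 of the arrays labelled CPSF3 knockdown, and 71 without control replicate 3, so these calls depend on which arrays are included.

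HSPH1 held 11 of the called probe sets among its 27. All 25 probe sets of HSPA4 and all 17 of DNAJC7 were above control, with 3 called in each gene. For DNAJA1, 10 of 12 probe sets were above control, by 0.98 to 2.18 on the log2 scale, and 6 of them were called. The other two, with neighbouring numbers, were below control by a change of -0.39 and -0.38 (unadjusted p = 0.0124 and 0.0324, limma; neither passed adjustment). The median change over the probe sets of DNAJA1 was 1.21, above the change of 0.68 in its gene level. HSPA8 had 23 of 24 probe sets above control and none called, and the exception was at -1.03 (unadjusted p = 0.0788, limma). CCT5 had 22 of 26 above control, within a range from -1.11 to 1.03, and BAG2 had 4 of 6, from -0.22 to 1.63. All 3 kept probe sets of CRYAB were called lower, by a change of -1.57 to -1.38. They are 3 of 6, and the filter takes the mean over all 9 arrays. Probe sets with signal mainly on the control arrays could pass it, so their likeness is not separate evidence for the fall. All 8 of HSPB1 were below control, and 1 of them was called. TCP1, which was not called as a gene, had 2 called probe sets and 27 of 28 above control.

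**Figure D4:**
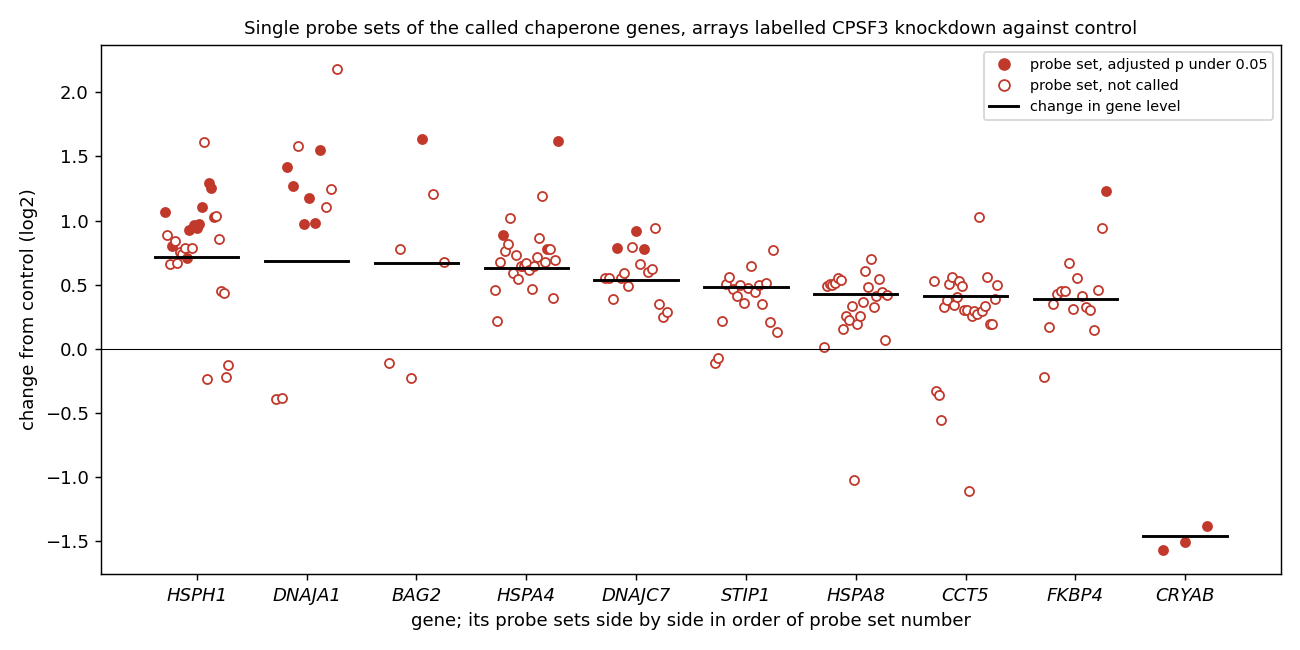
Change of each kept probe set from control on the arrays labelled CPSF3 knockdown (log2, y axis) for the 10 called members (x axis), in order of probe set number within a gene; filled points have an adjusted p under 0.05 and black lines mark the change in gene level. Most points of the first 9 genes lie above 0, 2 of the 12 probe sets of DNAJA1 lie below it, and all 3 of CRYAB lie below -1.

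On the RBFOX2 knockdown arrays no member was called against control (0 of 41; limma, Benjamini-Hochberg over all genes), where 0.0299% of all genes were called higher and 0.143% lower. At an unadjusted p under 0.05 there were 5 members (12.2%, against 13.6% of all genes): STIP1 and BAG2 were higher and PTGES3, CRYAB and HSF2 lower. The median change of the members was 0.01, against 0.03 over all genes. Arrays lay apart from control for 2 members on the higher side (4.88%, against 7.07%) and 4 on the lower side (9.76%, against 7.05%). Leaving out control replicate 3 gave 2 called members (4.88%), CRYAB and HSF2, both lower, and 9.23% of all genes were then called.

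PTGES3 read 11.55, 11.58 and 11.67 on the control arrays, 11.40, 11.56 and 11.50 with the CPSF3 label and 11.11, 11.24 and 11.29 on the RBFOX2 knockdown arrays. The RBFOX2 knockdown arrays lay below both other groups, which overlapped each other. Its change was -0.39 ± 0.11 (unadjusted p = 0.0029, adjusted p = 0.151, limma), and 16 of its 17 probe sets were below control. CRYAB changed by -0.85 ± 0.22 on the RBFOX2 knockdown arrays (unadjusted p = 0.00194, adjusted p = 0.136) and HSF2 by -0.37 ± 0.15 (adjusted p = 0.275, limma). Of the members that rose with the CPSF3 label, STIP1 was at 0.28 ± 0.11 (adjusted p = 0.267) and BAG2 at 0.38 ± 0.17 (adjusted p = 0.360, limma) here, both with arrays above all control arrays. The rest of them ran from 0.06 for FKBP4 to 0.25 for HSPH1. Both comparisons use the same control arrays, so likeness between them is not independent.

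Set directly against the RBFOX2 knockdown arrays, the arrays labelled CPSF3 knockdown had no called member (0 of 41, limma), and 0.137% of all genes were called higher and 0.263% lower. At an unadjusted p under 0.05 there were 18 members, 17 of them higher (43.9% in all, against 13.3% of genes). The median change was 0.23, with 35 of 41 members above 0, and over all genes it was 0.00. Arrays with the CPSF3 label lay above all RBFOX2 knockdown arrays for 17 members (41.5%, against 10.9%) and below them for 1 (2.44%, against 9.41%), which was CRYAB. DNAJA1 had the smallest p, with a difference of 0.48 ± 0.13 (adjusted p = 0.128, limma). HSPH1 differed by 0.47 ± 0.15 (adjusted p = 0.197), HSPA4 by 0.43 ± 0.14 (adjusted p = 0.205) and HSPD1 by 0.39 ± 0.13 (adjusted p = 0.211, limma). HSP90AB1 differed by 0.31 ± 0.11 (adjusted p = 0.237, limma): it read 12.51, 12.52 and 12.48 with the CPSF3 label and 12.11, 12.13 and 12.34 on the RBFOX2 knockdown arrays, with control between at 12.35, 12.37 and 12.25. In this fit no rise over control with the CPSF3 label was shown to differ from the change on the RBFOX2 knockdown arrays. HSPH1 was called between the knockdown groups with the mean as gene level and with array weights, DNAJA1 with array weights and without control replicate 3, and CCT2 with array weights.

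Other genes of protein folding, taken from lists of 112 genes of which 103 were measured, were called at shares near those of all genes. On the arrays labelled CPSF3 knockdown 14 of them rose (13.6%, against 10.0% of all genes) and 3 fell (2.91%, against 4.38%), and their median change was 0.03. Of 32 further DNAJ genes 8 rose and 1 fell, where 10.0% and 4.38% of all genes did. Their share of rises was like that of the members, so a share above that of all genes was not particular to the members. The called DNAJ genes ran from DNAJC8, a J-domain protein of the spliceosome, at 1.08 ± 0.20 (adjusted p = 0.00492, limma) and DNAJC15, a mitochondrial one, at 1.02 ± 0.23 to DNAJC4 at -0.39 ± 0.11. Of 11 further chaperonin, prefoldin and phosducin-like genes 2 rose, the TRiC subunit CCT6A by 0.96 ± 0.14 (adjusted p = 0.00204, limma) and TXNDC9, a phosducin-like regulator of TRiC, by 0.91 ± 0.21. The change of CCT6A was above that of each TRiC subunit among the members, a difference that was not tested. Of 13 further HSP90 cochaperones 2 rose, FKBP5, an immunophilin induced by steroid hormones, by 0.79 ± 0.18 and RPAP3, which links HSP90 to the assembly of RNA polymerase, by 0.72 ± 0.14.

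Of 19 endoplasmic reticulum chaperones 1 rose and 2 fell, where 10.0% and 4.38% of all genes did. Their median change was -0.08, and their difference from the members was not tested. The disulfide reductase DNAJC10 rose by 0.67 ± 0.17, and HERPUD1, a part of the degradation machinery of that compartment, fell by 0.56 ± 0.13 on the log2 scale. DNAJB9, a cochaperone of the endoplasmic reticulum HSP70, fell by 0.50 ± 0.15 with overlapping arrays, and its call was lost in 11 of 19 alternatives. Of 8 mitochondrial proteases and unfoldases 1 rose, CLPB by 0.46 ± 0.13, a share near the 10.0% of all genes. No gene was called among 9 further HSP70 genes and exchange factors, 4 further small heat shock proteins and 7 further heat shock factors and heat-inducible genes. In these lists 0, 0 and 3 genes had an unadjusted p under 0.05 (limma), as had 4721 of all 16748 genes. The calls of DNAJC8 and CCT6A held in all 19 alternatives. FKBP5 and TXNDC9 were lost without CPSF3 replicate 1, and DNAJC15 and RPAP3 without the filter on low signal, where DNAJC15 was at 0.33. DNAJC4, DNAJC10, HERPUD1 and CLPB were each lost on leaving out CPSF3 replicate 1 or either of control replicates 1 and 2, and in other runs. On the RBFOX2 knockdown arrays 0 of these 103 genes were called, against 0.173% of all genes. Of the 103, 16 had an unadjusted p under 0.05 (limma), where 13.6% of all genes did.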

How the data were processed

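Total RNA of Flip-In-293 cells was measured on 9 exon arrays, 3 per group. The authors deposited a log2 signal per probe set and array; per the submitters' processing notes the authors used Affymetrix Power Tools and RMA with build hg18, with no versions stated there. RMA gives all arrays a common distribution, which hides any shift of most transcripts at once. Groups come from the sample labels. The members and gene lists were chosen with earlier results of these data known.

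Probe sets were named where the platform annotation gives 1 symbol (354600 of 1384231), with 2950 of 19497 symbols updated through RefSeq. The filter on low signal kept those whose mean over 9 arrays reached 6.97, the overall median. A gene level is the median over 3 or more kept probe sets. Levels and single probe sets were fitted with lmFit and eBayes (limma 3.58.1, R 4.3.3) in 1 model of 3 groups, 2-sided, with Benjamini-Hochberg adjustment over all genes or kept probe sets at 0.05; the test was checked on simulated data. An exact permutation test of 3 against 3 cannot go below 0.1. The precision is limited by the number of arrays.

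Named genes are all members, with every array given for called members and, in a class with none, for the smallest p; PTGES3, HSPB1, DNAJB1, CHORDC1 and HSP90AB1 were added after their values were seen. Of each further list up to 2 highest and 2 lowest called genes are named. Promoters are the first window listed per gene in the RefSeq table.
Alternatives were other filters, 1 or more probe sets per gene, quantile normalisation, centring, the mean as gene level, a replicate block, the compared groups only, a trend with robust prior, array weights and leaving out each array. Deviations of same-numbered arrays of different groups had correlations from -0.14 to 0.33 (3 of 9 above 0.1), and those of differently numbered arrays from -0.45 to 0.35. With 3 arrays per group this cannot decide whether the numbers mark pairs. The main fit did not take them as pairs.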

Additional observations from a re-analysis of the deposited data

How the results depend on the processing

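With the replicate block, 10 members and 34 of their probe sets were called on the arrays labelled CPSF3 knockdown, against 10 and 32 without it, and 0 in the other comparisons. The 10 members were 24.4% with or without the block, where 15.3% and 14.4% of all genes were called. The count of 10 members ran from 5 to 12 when 1 array was left out. Without CPSF3 replicate 1 it was 5 (12.2%, with 5.76% of all genes called). Without RBFOX2 replicate 1 or 3 it was 12 (29.3%, with 13.9% and 13.5%). It was 15 (36.6%) both with the mean as gene level and with array weights, where 21.1% and 28.8% of all genes were called, against 14.4% in the report. With the upper-quartile filter 8 of 39 members were called (20.5%, against 17.6% of all genes). HSPA4, HSPH1, DNAJA1 and DNAJC7 were called in all 19 alternatives and CRYAB in all 18 that gave it a level, whereas HSPA8 was lost in 5, FKBP4 in 5, CCT5 in 7, BAG2 in 3 and STIP1 in 1. Of the members not called in the report, 10 were called in some alternative: HSPD1 in 5, AHSA1 and BAG5 in 3 each, HSPA14, HSPE1, TCP1 and CCT2 in 1 each, all higher, and HSF2 in 2, HSPB1 and HSPB8 in 1 each, all lower. The change turned its sign in at least 1 alternative for 14 members, none of them called in the report. On the RBFOX2 knockdown arrays, 3 members were called with array weights (7.32%, against 9.03% of all genes) and from 0 to 2 when 1 array was left out; the 2 came without control replicate 3. Between the knockdown groups, 1 member was called with the mean as gene level (2.44%, against 0.836% of all genes) and 3 with array weights (7.32%, against 3.59%). When 1 array was left out, from 0 to 1 member was called there. The 1 came without control replicate 3, where 0.866% of all genes were called. The probe set count of 32 of 728 was 0 of 828 with no filter on low values, 70 of 613 with the upper-quartile filter and 83 of 728 with array weights. It ran from 0 to 71 of 728 when 1 array was left out. On the RBFOX2 knockdown arrays the count was 0, and 18 of 728 without control replicate 3 (range 0 to 18). Shares over all probe sets were not taken in these settings. The causes were not tested. Weak signal compresses changes, which bears most on CRYAB; reading of related copies by probe sets of HSPA8, HSPD1, HSPE1 and the HSP90 genes was not tested.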

Other observations

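The inducible HSP70 pair could be read only together. There were 14 probe sets that the annotation gives to both HSPA1A and HSPA1B, and 11 passed the filter on low signal. Their median read 12.85, 12.64 and 12.90 on the control arrays, 13.08, 12.83 and 12.79 on the arrays labelled CPSF3 knockdown and 12.74, 12.53 and 12.47 on the RBFOX2 knockdown arrays. The arrays of all groups overlapped except that those labelled CPSF3 knockdown lay above the RBFOX2 knockdown arrays. The change with the CPSF3 label was 0.10 ± 0.13 (95% interval -0.17 to 0.38; adjusted p = 0.658, limma), that on the RBFOX2 knockdown arrays -0.22 ± 0.13 (adjusted p = 0.502), and the difference between them 0.32 ± 0.13 (unadjusted p = 0.0248, adjusted p = 0.293, limma). Which of the 2 genes contributed cannot be told apart.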
